A study of Mus musculus with 30 samples.

Results

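ATF2 and ATF7 are closely related activating transcription factors of the bZIP type. They bind DNA as dimers, with each other or with Jun proteins, at cyclic AMP response elements, and stress-activated kinases switch them on by phosphorylation. The regions described here are 400 bp intervals that the deposited peak lists of this study gave to ATF2 alone or to ATF7 alone, with none of the other 8 profiled factors at the same interval. The members were chosen by list membership: an interval with identical coordinates had to stand in exactly 1 of 9 lists, and that list had to be ATF2 or ATF7. Of 34724 intervals on chromosomes 1 to 19 and X, 4560 (13.1%) met the rule. ATF2-alone intervals numbered 3249 and ATF7-alone intervals 1311.

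The lists came from chromatin immunoprecipitation with sequencing (ChIP-seq) in 3T3-L1 preadipocytes, an established line of mouse fibroblasts able to turn into fat cells. All 9 libraries were from the same condition. Cells grown past confluence were harvested 4 h after induction with 10% FCS (serum), 1 μg/ml insulin, 1 μM dexamethasone (a glucocorticoid) and 0.5 mM 3-isobutyl-1-methylxanthine, a phosphodiesterase inhibitor through which cyclic AMP rises. Besides ATF2 and ATF7, the factors were the AP-1 subunits cJun, FOSL2 and JunB, the Krüppel-like factors KLF4 and KLF5, and the nuclear receptors VDR and RXR. Each factor had 1 library and its own antibody, and the other 21 of 30 labelled samples were not analysed here. The lists gave positions only, with no score and no read count, which leaves sequencing depth unknown. With 1 library per factor, no test was run on any difference below. The 95% intervals given with shares are Clopper-Pearson (exact). They describe counting error alone and treat neighbouring intervals as independent. No sequence is shown, because the positions are in the mouse build mm9 and no genome of that build was used here.

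How much of each list stood alone followed directly from the rule and is given as a description. ATF2-alone intervals made up 28.1% of the 11547 ATF2 intervals (27.3 to 29.0), and ATF7-alone intervals 17.8% of the 7375 ATF7 intervals (16.9 to 18.7). Among the other lists the alone share ran from 5.07% for KLF4 to 24.0% for KLF5. The ATF2 list thus had the highest alone share of the 9 lists, above the longer KLF5 list, and ATF7 stood between FOSL2 (20.4%) and VDR (13.9%). Just outside the rule lay intervals with 1 further list. There were 2469 of these in the ATF2 list and 1768 in the ATF7 list. The further list was the other ATF at 1317 intervals, which was 53.3% of the ATF2 intervals of this kind and 74.5% of the ATF7 ones. For ATF2 the next most frequent further list was KLF5 with 580 intervals (23.5%), then FOSL2 with 225 (9.11%). For ATF7 it was KLF5 with 175 (9.90%), then FOSL2 with 117 (6.62%). cJun, a known dimer partner of both ATF proteins, was the only further list at 9 ATF2 intervals and 5 ATF7 intervals. With any partner, intervals with 1 further list numbered 2735 in the KLF5 list (16.0%), 774 in the FOSL2 list (12.3%) and 656 in the cJun list (10.6%). Of the 6175 cJun intervals, 3610 were in 5 or more lists.

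The order of rows was a second property of the lists that the rule did not use. The rows were not sorted by position, and intervals shared by any pair of lists stood in the same order in both, for 36 of 36 pairs. The sources used here do not say what the order stands for. Intervals of 5 or more lists stood early, with a median at 24.8% of the rows of the ATF2 list and 28.4% of the ATF7 list. ATF2-alone intervals stood late, with a median row at 76.8% (95% order-statistic interval 75.4 to 78.2), and ATF7-alone intervals at 81.6% (79.5 to 84.4). The first 10% of rows held 82 ATF2-alone intervals, 7.10% of those rows, and the last 10% held 851, or 73.7%. In the ATF7 list the first 10% held 26 ATF7-alone intervals (3.52%) and the last 10% held 431 (58.5%). The same late position held for the intervals that stood alone in the other 7 lists, whose median rows ran from 75.9% (FOSL2) to 93.4% (cJun).

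The rise of the alone share along the rows was not smooth. In bins of 1% of rows, the alone share rose sharply in narrow bands. A band was defined after the data were seen, as a bin with an alone share at least 20 percentage points above the median of the 5 bins on each side, or of those that exist near the end of a list. The ATF2 list had 8 such bins in 6 bands. The band from row 5337 to row 5452 held 100 ATF2-alone intervals in 116 rows, an alone share of 86.2% (78.6 to 91.9), where the bins around it had 7.76% to 25.2%. The band from row 9133 to row 9362 held 193 in 230 rows (83.9%, 78.5 to 88.4), where the bins around it had 27.8% to 51.3%. The earliest, from row 2901 to row 3016, held 44 in 116 rows (37.9%) against a median of 9.48% around it. All bands of the ATF2 list together held 692 ATF2-alone intervals, 21.3% of that class.

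**Figure D1:**
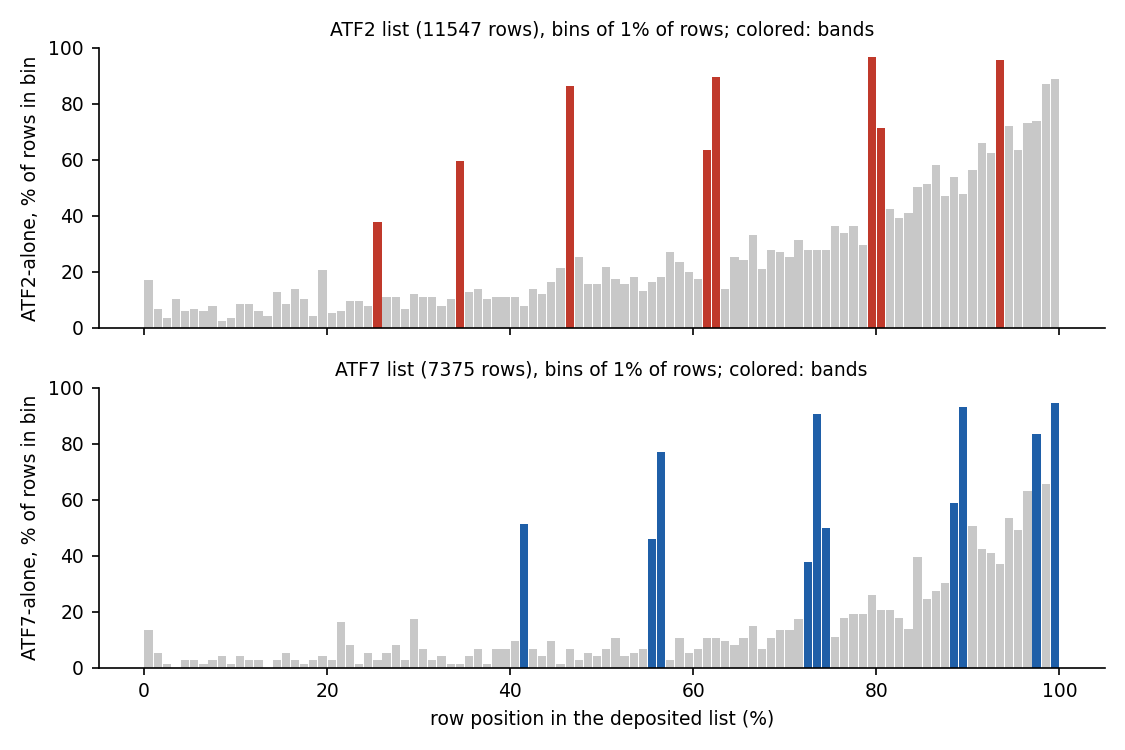
Share of rows that are alone intervals (y axis, percent) in each bin of 1% of rows (x axis, row position in percent) of the ATF2 list, top, and the ATF7 list, bottom, with bands colored. The shares climb toward the end of both lists, and single bins rise far above their neighbours. For example, an ATF2 bin reaches 86.2% of rows and an ATF7 bin 77.0%, where the neighbouring bins have medians of 16.0% and 6.76%.

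The ATF7 list had 10 band bins in 6 bands, with 502 ATF7-alone intervals or 38.3% of that class. Its band from row 4071 to row 4218 held 91 ATF7-alone intervals in 148 rows (61.5%, 53.1 to 69.4), where the bins around it had 2.70% to 10.8%. The longest run of consecutive alone rows was 66 in the ATF2 list and 45 in the ATF7 list. Bands were also found in the FOSL2 list (13 bins) and the KLF5 list (4 bins). The remaining lists had 1 bin each, or 2 for RXR, in every case at the very end. The last ATF7 band, from row 7303 to row 7375 (94.5%), was also the final bin of its list. Only earlier bins, with 49.3% to 83.6%, could be compared with it.

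The 4863 intervals listed for both ATF factors gave a common scale on which both classes could be placed. On that scale the classes had nearly the same spread: ATF2-alone intervals had a median at 90.7% of the shared intervals (quartiles 68.6 and 97.4) and ATF7-alone intervals at 90.4% (68.7 and 97.5). Before the midpoint of the scale lay 11.7% of ATF2-alone and 9.92% of ATF7-alone intervals. The bands of the classes did not coincide. The step at 64% held 134 ATF2-alone and 2 ATF7-alone intervals, while the step at 67% held 18 and 66. The step at 80% held 185 and 7, and the step at 84% held 26 and 86. The step at 51% held 72 and 4, and the step right after it 11 and 41. In these places the ATF7-alone peak came 1 to 4 steps after the ATF2-alone peak. Earlier on the scale the order was the opposite, with 12 ATF2-alone and 16 ATF7-alone intervals at step 38 and 44 and 2 at step 39.

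**Figure D2:**
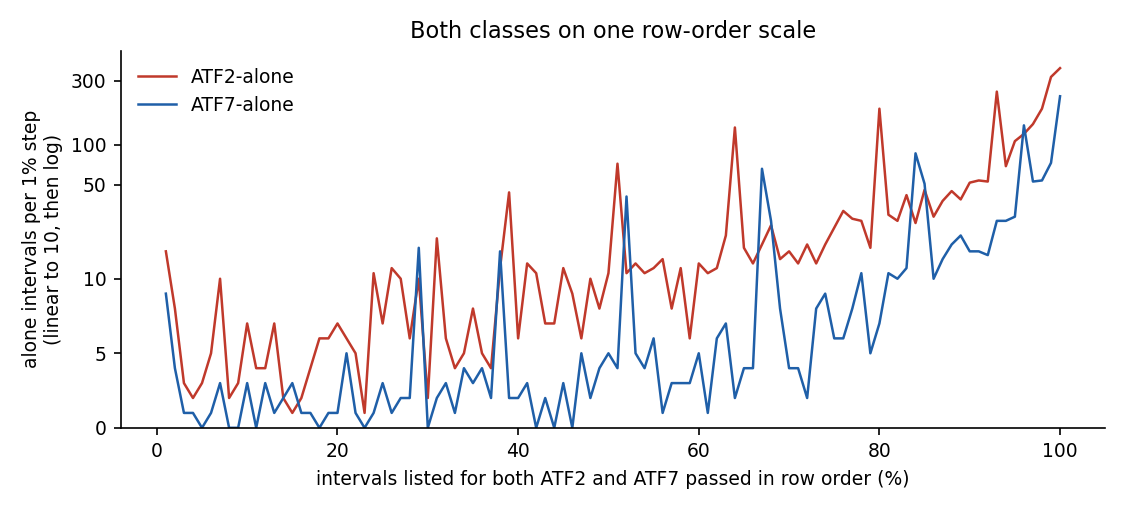
Number of ATF2-alone and ATF7-alone intervals (y axis, linear to 10, then log) in each step of 1% of the 4863 intervals shared by the ATF lists, passed in row order (x axis). Sharp ATF2-alone peaks at 51%, 64% and 80% are followed by ATF7-alone peaks at 52%, 67% and 84%, and both classes are most numerous in the last steps, with 371 and 229 intervals in the final one.

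Members inside and outside bands had similar distances to intervals of 5 or more lists. Of the ATF2-alone intervals in bands, 16.3% lay within 10 kb of such an interval, against 15.6% of those outside bands. For ATF7-alone intervals the shares were 15.1% and 14.2%. A band member of ATF2 was somewhat more often within 10 kb of an ATF7 interval (30.6%, 27.2 to 34.2) than the ATF2-alone intervals outside bands (25.03%, 23.4 to 26.8). Dense windows on chromosome 10, described below, held 6.79% of the former and 2.15% of the latter, and their part in this difference was not tested.

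The next comparison asked how far the members lay from regions where many factors met, which is a separate measure from the listing at the interval itself. ATF2-alone intervals had a median distance of 80.1 kb from midpoint to midpoint to the nearest interval of 5 or more lists (quartiles 21.1 and 249 kb), and ATF7-alone intervals 84.3 kb (23.2 and 246 kb). Within 10 kb of such an interval were 511 ATF2-alone intervals (15.7%, 14.5 to 17.0) and 191 ATF7-alone intervals (14.6%, 12.7 to 16.6). Over all 34724 intervals the share was 19.7%, and over the 10488 single-list intervals of the other 7 factors it was 16.8%. Both classes were thus below the share of all intervals. The ATF2-alone interval reached the share of other single-list intervals and the ATF7-alone interval lay just below it. The ATF classes differed by 1.16 percentage points (95% interval -1.22 to 3.43), with the ATF2-alone share higher on 14 of 20 chromosomes. This difference was within counting error. Without the dense windows of chromosome 10 it was 2.50 points (0.182 to 4.70), from 14.7% (13.5 to 16.0) and 12.2% (10.4 to 14.2), which is past counting error. The ATF2-alone share was again higher on only 14 of 20 chromosomes, a count that leaving out these windows could change only through chromosome 10. Without these windows both classes were below all intervals (18.8%) and other single-list intervals (16.4%).

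Some members touched an interval of many lists although they were listed separately. Midpoints of different intervals were at least 201 bp apart, so 400 bp intervals could overlap. An overlapping interval of 5 or more lists was found for 32 ATF2-alone (0.985%) and 12 ATF7-alone intervals (0.915%), near the 0.772% of all intervals. An ATF2-alone interval on chromosome 17 (mm9, 87189257 to 87189656) lay 254 bp from one. Another, on chromosome 6 from 118885522 to 118885921, lay 265 bp from an interval listed for all 9 factors, and an ATF2-alone interval on chromosome 16 from 91523014 to 91523413, lay 272 bp from one. The nearest ATF7-alone interval of this kind, on chromosome 6 from 135312921 to 135313320, was 277 bp from an interval listed for the other 8 factors, all except ATF7. Close behind, the ATF7-alone interval on chromosome 6 from 91509066 to 91509465 was 291 bp from an interval of all 9. At these places the midpoints lay less than the 400 bp length of an interval apart. Where the neighbour was listed for all 9 factors, the member's own factor was listed at both intervals. Beside the interval of the other 8 factors, ATF7 was listed only at the shifted position.

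At the other end were members with no many-factor interval for megabases. The ATF2-alone interval on chromosome X from 91397800 to 91398199 was 6485 kb away from one, and the ATF2-alone interval on chromosome 1 from 4775673 to 4776072 was 6351 kb away. For ATF7-alone, an interval on chromosome X from 91786065 to 91786464 was 6097 kb away, and one on chromosome 17 from 93779346 to 93779745 was 4751 kb away. Both members on chromosome X had the same nearest site of the other ATF, an interval listed for ATF2 and ATF7 together from 91612166 to 91612565. More than 1 Mb from any interval of 5 or more lists lay 169 ATF2-alone intervals (5.20%) and 52 ATF7-alone intervals (3.97%), against 3.99% of all intervals.

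**Figure D3:**
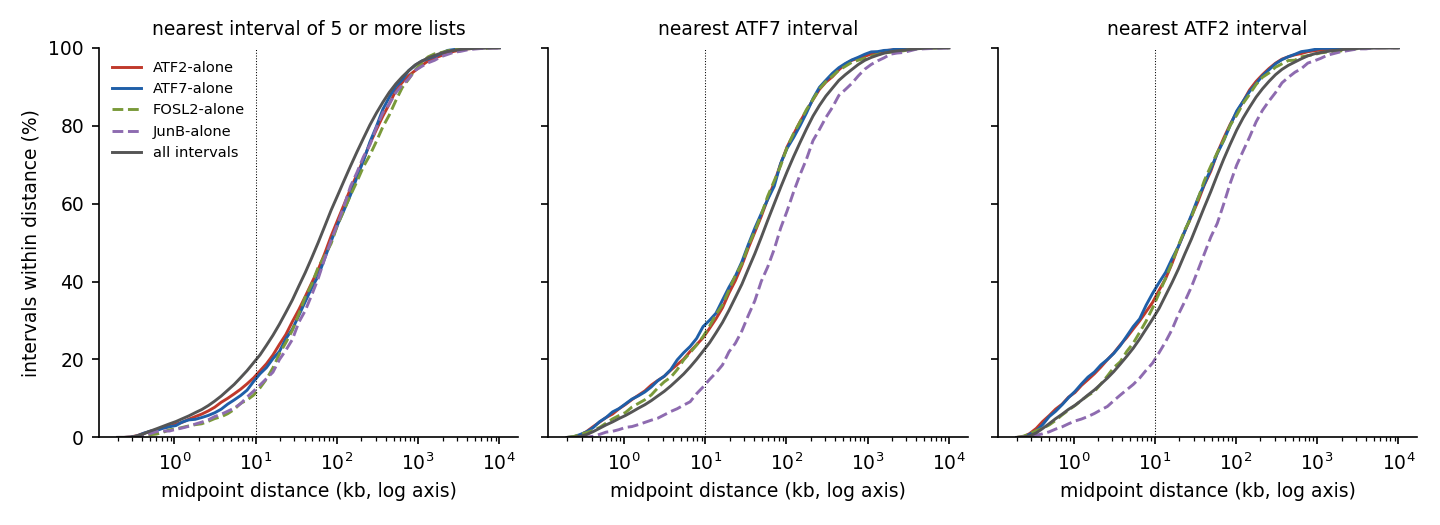
Cumulative share of intervals (y axis, percent) within a given midpoint distance (x axis, kb, log scale) of the nearest interval of 5 or more lists, of ATF7 and of ATF2, for both ATF classes, FOSL2-alone, JunB-alone and all intervals. The ATF classes run close together in every panel, below all intervals for 5 or more lists (15.7% and 14.6% against 19.7% at 10 kb, the dotted line) and above them for the ATF sites, while JunB-alone lies lowest for the ATF sites.

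The comparison with the sites of the other ATF depends on which list is the target. ATF2-alone intervals lay a median of 36.5 kb from the nearest ATF7 interval, and 852 of them (26.2%, 24.7 to 27.8) were within 10 kb. ATF7-alone intervals lay a median of 20.4 kb from the nearest ATF2 interval, and 490 (37.4%, 34.7 to 40.1) were within 10 kb. The ATF2 list was longer than the ATF7 list, and the values moved in the same way for intervals of any kind. Over all intervals 22.8% had an ATF7 interval within 10 kb and 31.3% an ATF2 interval, and over single-list intervals of the other 7 factors 19.6% and 28.0%. Both ATF classes thus stood above these shares for either target.

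When both classes were measured to the same target, the gap between them was small. An ATF2 interval other than the member itself lay within 10 kb of 35.7% of ATF2-alone and 37.4% of ATF7-alone intervals, a difference of -1.70 points (-4.85 to 1.41). For an ATF7 interval the shares were 26.2% and 28.7%, a difference of -2.46 points (-5.40 to 0.430). For an interval listed for both ATF factors they were 18.7% and 21.0%, a difference of -2.32 points (-4.98 to 0.253), against 16.9% of all intervals and 14.3% of single-list intervals of the other 7 factors. For these 3 targets the differences were within counting error. Without the dense windows the differences were 0.714, -0.0888 and 0.170 points. Thus 26.2% and 37.4%, which refer to different lists, were each close to the value of the other class for the same list. The nearest ATF7 interval of an ATF2-alone member was listed for both ATF factors in 65.4% of cases, against 65.9% of the ATF7 list as a whole. The nearest ATF2 interval of an ATF7-alone member was listed for both in 42.2%, against 42.1% of the ATF2 list.

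Members of opposite classes could lie side by side. On chromosome 8, the ATF2-alone interval from 86727191 to 86727590 and the ATF7-alone interval from 86727452 to 86727851 were 261 bp apart. On chromosome 19, the ATF2-alone interval from 42734418 to 42734817 and the ATF7-alone interval from 42734680 to 42735079 were 262 bp apart. The third pair was on chromosome 4, from 46316637 to 46317036 for ATF2 and from 46316905 to 46317304 for ATF7, 268 bp apart. These intervals overlap, and under a rule that also counts overlapping intervals as shared they would not be alone. In all, 15 ATF2-alone intervals (0.462%) overlapped an ATF7-alone interval, and 58 (1.79%) had one within 1 kb, against 0.253% and 0.922% of all intervals. Within 10 kb, an ATF7-alone interval was found for 7.39% of ATF2-alone intervals and an ATF2-alone interval for 16.9% of ATF7-alone intervals, against 5.13% and 10.6% of all intervals. Another ATF2-alone interval was near 15.0% of ATF2-alone intervals, and another ATF7-alone interval near 9.23% of ATF7-alone intervals. With ATF7-alone intervals as the target, the classes differed by -1.84 points (-3.75 to -0.0549), past counting error, and by -0.491 points (-2.18 to 1.06) without the dense windows, within it. By chromosome the direction was mostly the opposite, with the ATF2-alone share higher on 12 of 20 chromosomes and the ATF7-alone share on 8.

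Overlap with an interval of any kind was found for 225 ATF2-alone intervals (6.93%) and 85 ATF7-alone intervals (6.48%), against 4.98% of all intervals and 4.72% of the single-list intervals of the other 7 factors. Of the 225 nearest intervals overlapping an ATF2-alone member, 116 (51.6%) were themselves listed for ATF2 and 81 (36.0%) for ATF7. Of the 85 overlapping an ATF7-alone member, 39 (45.9%) were listed for ATF2 and 27 (31.8%) for ATF7. Over all intervals with an overlapping neighbour, the shares were 40.1% and 25.2%. The nearest interval of any kind was within 10 kb for 58.2% of ATF2-alone and 57.7% of ATF7-alone intervals, against 60.6% of all intervals and 57.2% of other single-list intervals. It listed ATF2 in 42.7% and 42.6% of cases, against 33.8% over all intervals, and ATF7 in 26.8% and 28.3%, against 21.7%. A single list stood at the nearest interval in 47.95% of cases for ATF2-alone and 47.1% for ATF7-alone, against 42.3% over all intervals.

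By the list of the neighbour, 6 of the other 7 factors were less often near the members than near all intervals, and FOSL2 was not. KLF5, the zinc-finger factor with the longest list, had an interval within 10 kb of 36.7% of ATF2-alone and 33.6% of ATF7-alone intervals, against 41.8% of all intervals and 37.9% of the single-list intervals of the other 7 factors. VDR, the vitamin D receptor, was within 10 kb of 23.9% and 23.5%, against 31.3% and 28.5%, and RXR, its dimer partner, of 24.5% and 23.8%, against 32.5% and 28.9%. JunB was within 10 kb of 22.2% and 21.0%, against 27.7% and 25.2%. KLF4 was within 10 kb of 16.7% and 15.8%, against 20.1% and 17.1%, and cJun of 13.5% and 15.5%, against 18.9% and 16.5%. For KLF4, for KLF5 near ATF2-alone intervals and for cJun near ATF7-alone intervals, the members were close to other single-list intervals. Those other intervals included 4103 KLF5-alone intervals, of which 44.7% had another KLF5 interval within 10 kb. With all chromosomes in full, the classes differed most for FOSL2, an AP-1 subunit of the Fos family. A FOSL2 interval lay within 10 kb of 21.2% of ATF2-alone (19.8 to 22.7) and 25.7% of ATF7-alone intervals (23.4 to 28.2), against 20.7% of all intervals and 18.99% of other single-list intervals. This difference of -4.50 points (-7.32 to -1.74) was larger than counting error, but the ATF7-alone share was higher on only 11 of 20 chromosomes. Without the dense windows of chromosome 10 it was -1.53 points (-4.27 to 1.10), within counting error, from 18.9% and 20.4%. Without those windows the differences for KLF5 (3.65 points, 0.469 to 6.77) and JunB (3.19 points, 0.501 to 5.78) were larger and past counting error, with the ATF2-alone share higher on 12 and 11 of 20 chromosomes. Leaving out the windows could change these counts only through chromosome 10.

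**Figure D4:**
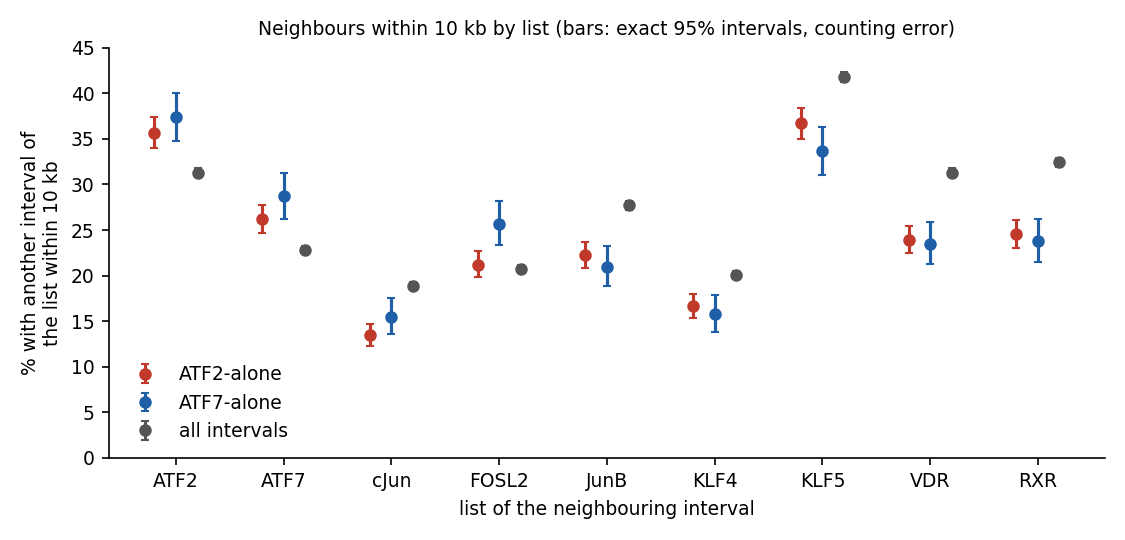
Share of ATF2-alone intervals, ATF7-alone intervals and all intervals (y axis, percent, with exact 95% intervals) that have another interval of each list (x axis) within 10 kb. Both ATF classes lie above all intervals for ATF2 and ATF7 and below them for cJun, JunB, KLF4, KLF5, VDR and RXR, and at FOSL2 they stand at 21.2% and 25.7%, a gap that is smaller than those at KLF5 and JunB once the dense windows of chromosome 10 are left out.

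Among single-list intervals of other factors, those of FOSL2 and KLF5 were more often near ATF sites than those of JunB. ATF2 intervals were within 10 kb of 34.4% of FOSL2-alone intervals (31.8 to 37.1), 32.4% of KLF5-alone intervals (31.0 to 33.8) and 19.8% of JunB-alone intervals (17.8 to 22.0). ATF7 intervals were within 10 kb of 26.6%, 21.7% and 13.4%. Outside the dense windows, the share of FOSL2-alone intervals near an ATF2 interval was 29.2% (26.6 to 31.9) and that of KLF5-alone intervals 32.1% (30.7 to 33.6), beside the 33.7% of ATF2-alone and 33.0% of ATF7-alone intervals. Near intervals of 5 or more lists were 11.1% of FOSL2-alone, 12.3% of JunB-alone and 19.3% of KLF5-alone intervals. The 1317 intervals listed for ATF2 and ATF7 together and no other factor gave 12.7% near 5 or more lists, below both ATF-alone classes.

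Members were found on all 20 chromosomes. The alone share of the ATF2 list was above that of the ATF7 list on 20 of 20, which repeats for each chromosome what the rule counted over the whole. ATF2-alone intervals made up between 25.4% of the ATF2 list on chromosome 5 and 40.9% on chromosome X. ATF7-alone intervals made up between 13.5% of the ATF7 list on chromosome 15 and 26.4% on chromosome X. Chromosome X was thus highest for both, with 52 of 127 ATF2 intervals (32.3 to 50.02%) and 19 of 72 ATF7 intervals (16.7 to 38.1%). The numbers were small, and for ATF7 the interval included the autosomal share of 17.7%. For ATF2 the autosomal share was 28.0%. The X chromosome had the higher alone share in the other 7 lists as well, for example 43.8% against 20.2% for FOSL2 and 22.7% against 13.7% for VDR.

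**Figure D5:**
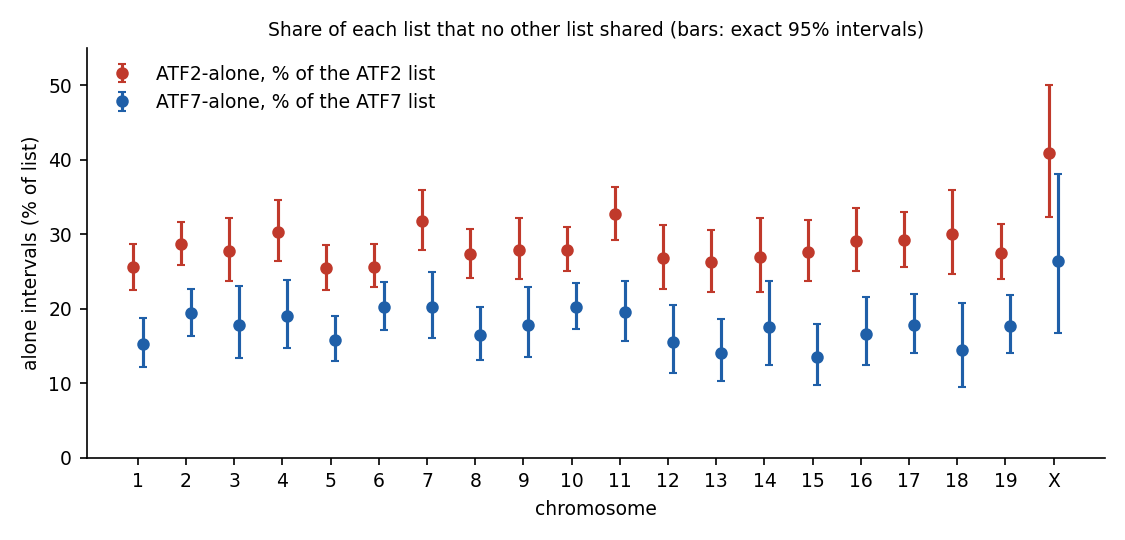
Alone intervals as a percent of the ATF2 list and of the ATF7 list (y axis, with exact 95% intervals) on each chromosome (x axis). The ATF2 points lie above the ATF7 points on all 20 chromosomes, and both are highest on chromosome X, at 40.9% and 26.4%.

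The number of ATF2-alone intervals for each ATF7-alone interval ran from 1.78 on chromosome 10 to 3.33 on chromosomes 15 and 18. Chromosome 6 was close to the low end with 1.79, from 234 and 131 intervals. Chromosome 10 held 249 ATF2-alone intervals, 7.66% of that class, and 140 ATF7-alone intervals, 10.7% of that class. Of the whole lists it held 7.72% for ATF2 and 9.37% for ATF7. Much of this lay in 3 windows of 1 Mb that held more than 10 times the median of 14 intervals. The window from 107000001 to 108000000 held 375 intervals, among them 48 ATF2-alone and 45 ATF7-alone. The window from 116000001 to 117000000 held 204, with 15 and 15, and that from 117000001 to 118000000 held 288, with 39 and 31. In all, the dense windows held 3.14% of ATF2-alone intervals (2.57 to 3.80) and 6.94% of ATF7-alone intervals (5.63 to 8.45), against 2.50% of all intervals. FOSL2-alone had 7.80% there and JunB-alone 0.143%. In the dense windows, in order of position, ATF2-alone intervals made up 29.1%, 12% and 26.2% of the ATF2 intervals, against 28.1% of the whole list. ATF7-alone intervals made up 31.25%, 12.8% and 22.6% of the ATF7 intervals, against 17.8%.

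Members of 1 class also lay in runs, and the runs with most members fell in those dense windows. With members at most 10 kb apart joined, 488 ATF2-alone intervals (15.0%) stood in 223 runs of 2 or more, and 121 ATF7-alone intervals (9.23%) in 54. The classes differ in size, so these shares do not compare directly. Over all intervals, 10.6% had an ATF2-alone interval within 10 kb and 5.13% an ATF7-alone interval. Dense windows held 66 of the 488 and 46 of the 121. The run with most ATF2-alone members spanned 44236 bp on chromosome 10, from 117810116 to 117854351. It held 9 ATF2-alone intervals among 20 intervals, of which 13 listed ATF2 and 2 listed ATF7, and none was listed for 5 or more factors. The run with most ATF7-alone members, on chromosome 10 from 107662369 to 107676377, held 6 among 11 intervals, of which 5 listed ATF2 and 8 listed ATF7. A run on chromosome 10 from 117883051 to 117894727 held 4 ATF7-alone intervals among 7, with no ATF2 interval in the span. This run and the ATF2-alone run with most members lay in the same 1 Mb window.

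Although members stood late as a class, some stood at the very top of the lists. The first 100 rows held 18 ATF2-alone and 12 ATF7-alone intervals. In the other lists the same count was 12 for KLF5 and for VDR, 5 for FOSL2, 2 for KLF4, 1 for RXR and 0 for cJun and JunB. In the first 1% of rows the alone share was 17.2% for ATF2 and 13.5% for ATF7, against 7.10% and 3.52% in the first 10%. The first row of the ATF7 list was an ATF7-alone interval on chromosome 9 from 3035647 to 3036046, and row 3 was an ATF7-alone interval on chromosome 9 from 3004374 to 3004773. The next one, at row 5, was on chromosome 10 from 117183336 to 117183735, inside a dense window. In the ATF2 list, rows 5 and 11 were ATF2-alone intervals on chromosome 11, from 3023678 to 3024077 and from 3061044 to 3061443. Row 14 was on chromosome 10 from 117147495 to 117147894, again inside a dense window. Of the 12 ATF7-alone intervals in the first 100 rows, 5 had their midpoint below position 3200000 of their chromosome and 2 lay in dense windows. Of the 18 ATF2-alone ones, 2 and 1 did. How many of all intervals in those rows lay at such positions was not examined, so these counts may not be particular to the members. Over the whole classes, 7 ATF2-alone (0.215%) and 5 ATF7-alone intervals (0.381%) had their midpoint below position 3200000, against 0.121% of all intervals.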

How the data were processed

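The submitters' processing notes name the build mm9 and the tools Bowtie, HOMER and FastQC; the sources used here give no version, role or peak threshold. The authors deposited 1 interval list per factor with 3 columns (chromosome, start, end), and the order of rows was kept as deposited. Every interval was 400 bp long. The autosomes and X were used; 2 intervals on chromosome Y, none in the ATF lists, were left out. Positions are 1-based.

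Distances ran between midpoints to the nearest other interval on the same chromosome, and 10 kb counted as near. Intervals for a difference of shares combined the exact limits of both shares (Newcombe's method). Named intervals were the first 3 in row order, the 3 nearest to and the 3 farthest from an interval of 5 or more lists, the 3 nearest to the other ATF, the 3 closest pairs and the 3 runs with most members, without chromosome 18; those that repeat a pattern are not all printed. The members, this rule and the alternatives were chosen with earlier results of these data known. The code was tested on simulated lists and passed 8 of 8 checks, which covered planted members and bands, distances and the coverage of the exact limits. Python 3.11.15, numpy 2.4.6, scipy 1.17.1, pandas 2.3.3 and matplotlib 3.10.9 were used.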

Additional observations from a re-analysis of the deposited data

How the results depend on the processing

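Of 80 values under alternatives, 58 moved by less than their counting interval (counts by less than 1.5 times) and 22 moved by more. Near an interval of 5 or more lists, the ATF2-alone and ATF7-alone shares were 21.3% and 20.7% when 4 or more lists were required, 11.9% and 10.8% with 6 or more, 10.6% and 9.15% at 5 kb, 24.2% and 22.3% at 20 kb, and 12.9% and 12.0% without the KLF5 list. Without dense windows the ATF7-alone share was 12.2%. Near the other ATF, the ATF2-alone and ATF7-alone shares were 19.4% and 27.5% at 5 kb, 37.4% and 49.6% at 20 kb, 23.9% and 33.0% without dense windows, and 18.7% and 21.0% with intervals of both ATF factors as the target. The ATF2-alone share was 24.3% when overlapping intervals also counted as shared. The median row of ATF2-alone intervals was 74.5% without the KLF5 list. Without the row bands 809 ATF7-alone intervals were left, which follows from removing them. That alternative and the common target were added after the data were examined. The difference in nearness to intervals of 5 or more lists was positive under every alternative run, from 0.582 to 2.50 points. It was within counting error in the main run and under every alternative except the one without dense windows (0.182 to 4.70). The alternatives reuse the same lists and largely the same members, so their shared sign is not separate support. No paired analysis was possible because each factor had 1 library. The lists hold no read counts, so the depth behind a listing, and whether a deeper library of another factor would have listed a member, could not be examined.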

Other observations

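Narrow row bands were not limited to the ATF lists. The FOSL2 list had 13 band bins, which held 535 FOSL2-alone intervals or 41.7% of that class, the highest share of the lists with bands, beside 38.3% for ATF7 and 21.3% for ATF2. Its band from row 4348 to row 4536 held 135 FOSL2-alone intervals in 189 rows (71.4%). The KLF5 list had 4 band bins with 361 KLF5-alone intervals.

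JunB-alone intervals had a median distance of 683 kb to an ATF7-alone interval and 193 kb to an ATF2-alone interval. For FOSL2-alone intervals the medians were 283 and 82.6 kb, for cJun-alone intervals 641 and 225 kb, and over all intervals 425 and 131 kb.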
